A study of Mus musculus with 6 samples.

Results

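The collagen genes of the mouse encode the chains of the triple-helical proteins that form most of the fibrous matrix between cells. In whole adrenal glands, 42 collagen genes were measured, of 19505 named genes. They were chosen as every gene on the array whose symbol has the form of a collagen chain (Col, a type number, the letter a and a chain number), and each was read by 1 probe set. Col7a1 and Col12a1 are not analysed here. Control mice had the genotype Mst1flox/flox;Mst2flox/flox, and mutant mice had the same floxed alleles together with Nr5a1-cre. All 6 animals were females aged 2 months, 3 per group, with 1 array each. The floxed kinase genes were therefore shared by both groups, and the Cre transgene alone set them apart. The comparison asked what followed from inactivation of both kinases in the adrenal cortex.

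Nr5a1-Cre is active in steroid-producing cells. The whole gland also holds the connective tissue capsule, vessels, nerves and the chromaffin cells of the medulla, and no group with Cre but without floxed alleles was used here. Among 7 cortex markers the list mean ran from 18.03 to 18.19 log2 units over the 6 arrays, and 5 chromaffin markers had means from 14.95 to 15.98, so both parts of the gland were present in every sample. Kidney markers were dim, with list means from 3.91 to 4.14. Stk4, which encodes MST1, measured 8.32, 8.66 and 8.94 in controls, against 8.14, 8.36 and 8.46 in mutants. These values overlap. They do not check the genotypes, since no source used here places the probes of Stk4 against its floxed part. Stk3, which encodes MST2, is not analysed here. Median signals of the arrays lay between 6.76 and 6.83. The array's 23 background probe sets ranged from 2.53 to 7.32 log2 units, which is used below as a guide to dim genes.

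Collagens are grouped by the structures they build. Fibrillar collagens such as types I, III and V assemble into banded fibres that give tissue its tensile strength, and fibril-associated collagens sit on the surface of those fibres. Network collagens form sheets: type IV makes the scaffold of every basement membrane, the thin layer beneath epithelial and endothelial cells and around steroid-producing cords, and types VIII and X form lattices. Type VI builds beaded filaments near cell surfaces. In many organs fibroblasts are the main source of types I, III and VI, while endothelial, epithelial and smooth muscle cells make type IV. The Hippo kinases MST1 and MST2 restrain the coactivators YAP and TAZ, which act through TEAD transcription factors and are known to influence matrix genes in fibroblasts.

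The genes for type IV chains lie in head-to-head pairs, and 2 of these pairs carry results below. The windows of Col4a4 and Col4a1 are shown because each also reaches into the partner gene, Col4a3 and Col4a2. They surround a transcript start in RefSeq, mostly on its upstream side (GRCm38.p6, chr1:82586800-82587099 and chr8:11312777-11313076, both minus strand). Capitals mark the bases that lie inside both annotated genes of a pair, 114 for Col4a3 and Col4a4 and 85 for Col4a1 and Col4a2.
Col4a4: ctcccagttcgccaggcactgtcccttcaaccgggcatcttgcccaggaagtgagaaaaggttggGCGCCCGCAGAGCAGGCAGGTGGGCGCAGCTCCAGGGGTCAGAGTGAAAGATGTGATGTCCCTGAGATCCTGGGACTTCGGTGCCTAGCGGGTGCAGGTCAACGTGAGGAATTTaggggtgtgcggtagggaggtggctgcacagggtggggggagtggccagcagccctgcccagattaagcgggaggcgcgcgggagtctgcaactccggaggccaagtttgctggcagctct
Col4a1: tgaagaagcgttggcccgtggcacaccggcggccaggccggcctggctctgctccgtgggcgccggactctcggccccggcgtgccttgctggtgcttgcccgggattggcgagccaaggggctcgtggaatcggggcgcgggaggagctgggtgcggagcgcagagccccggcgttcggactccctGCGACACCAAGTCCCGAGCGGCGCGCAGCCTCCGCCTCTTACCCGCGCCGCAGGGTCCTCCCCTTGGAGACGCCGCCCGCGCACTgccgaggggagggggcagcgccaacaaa
No source used here places the probes against these shared bases. Col4a5 and Col4a6 are neighbours on the X chromosome with 1274 bases between them.

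Of the 42 collagen genes, 0 passed the test between mutant and control glands (limma, Benjamini-Hochberg adjusted p under 0.05 over 22206 probe sets), where 16 probe sets, or 0.0721%, passed (0.054% higher in mutants and 0.018% lower). An unadjusted p under 0.05 was reached by 10.4% of all probe sets. At that level 4 collagen genes were higher in mutants (9.52% of 42, against 5.42% of all probe sets) and 0 were lower (against 4.96%). These were Col4a4, Col4a3, Col1a2 and Col15a1. The groups did not overlap for 5 genes, and for 16.4% of all probe sets: 4 had all mutants higher (9.52%, against 8% of all probe sets) and 1 had all mutants lower (2.38%, against 8.36%). The log2 change, mutant minus control, was above 0 for 27 genes and below 0 for 15, with a median of 0.12, where the median over all probe sets was -0.01 and 48% were above 0. For 38 of 42 genes the 95% interval of the change included 0. Means over the 6 arrays lay within the background range for 27 of the genes, and the other 15 were brighter. A signal in that range is not told apart from background, so differences there may be too small. The standard error of the change had a median of 0.21 log2 units over the collagen genes.

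**Figure D1:**
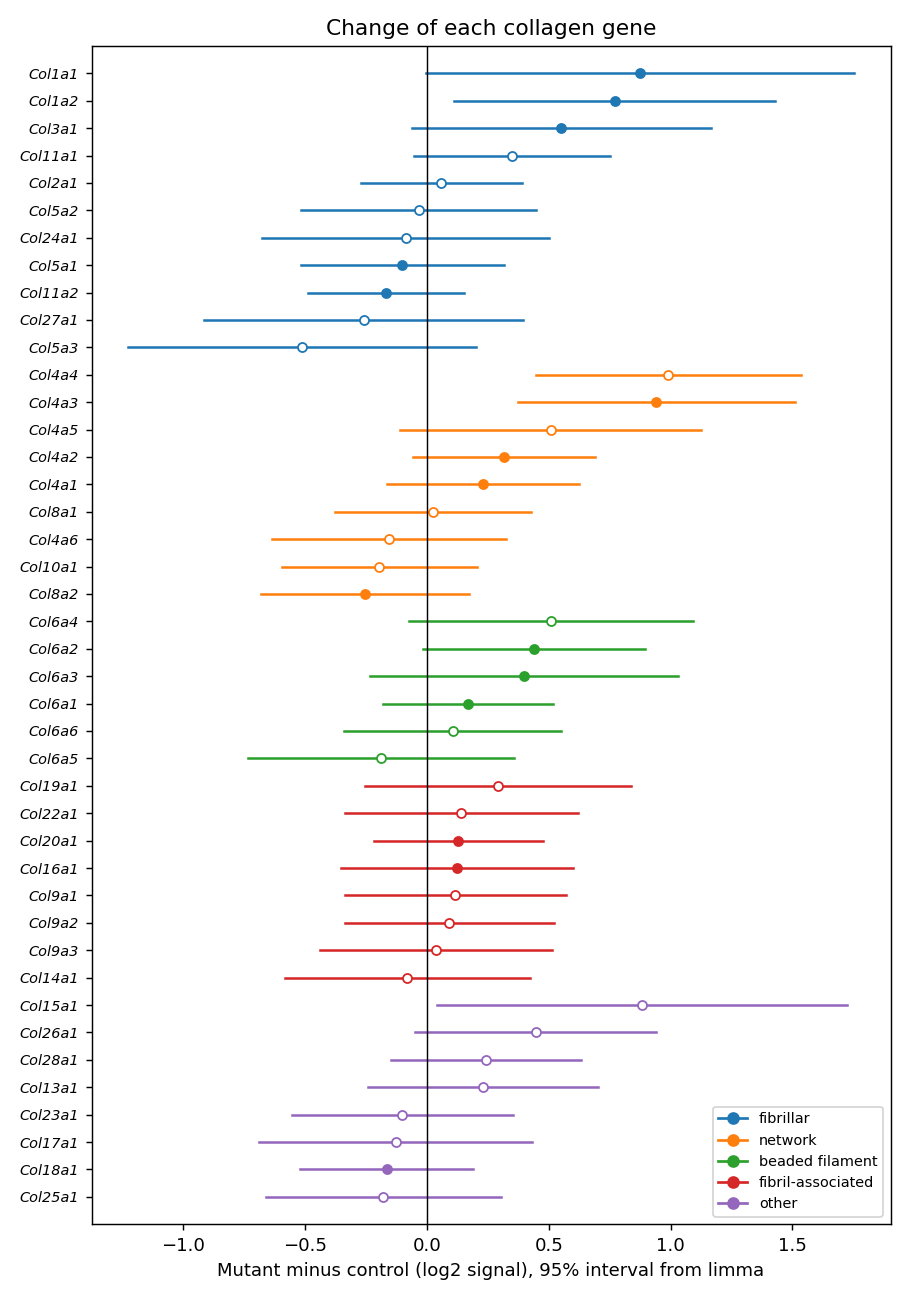
Change of each of the 42 collagen genes, mutant minus control in log2 units, with the 95% interval of the limma fit (3 animals per group). Colours give the class, and open circles mark genes whose mean over all arrays lay within the background range. For 38 genes the interval includes 0, and Col4a4 and Col4a3 have the intervals farthest above it.

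The medians of the classes lay between -0.04 and 0.28. Fibrillar genes had a median change of -0.04, with 5 of 11 higher, over a range from -0.51 to 0.88. The 5 fibrillar genes with means above the background range had a median of 0.55, with 3 of them higher, so the sign of this median depends on the dim genes. Network genes had a median of 0.23 with 6 of 9 higher, from -0.25 to 0.99, and beaded filament genes a median of 0.28 with 5 of 6 higher, from -0.19 to 0.51. Fibril-associated genes had a median of 0.12 with 7 of 8 higher, but within the narrow range from -0.08 to 0.29. The remaining 8 genes, which encode transmembrane, multiplexin and other chains, had a median of 0.06, with 4 higher. Within the fibrillar class Col1a1, Col1a2 and Col3a1 had the highest changes, followed by Col11a1 at 0.35, and the other 7 genes lay at 0.06 or lower.

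**Figure D2:**
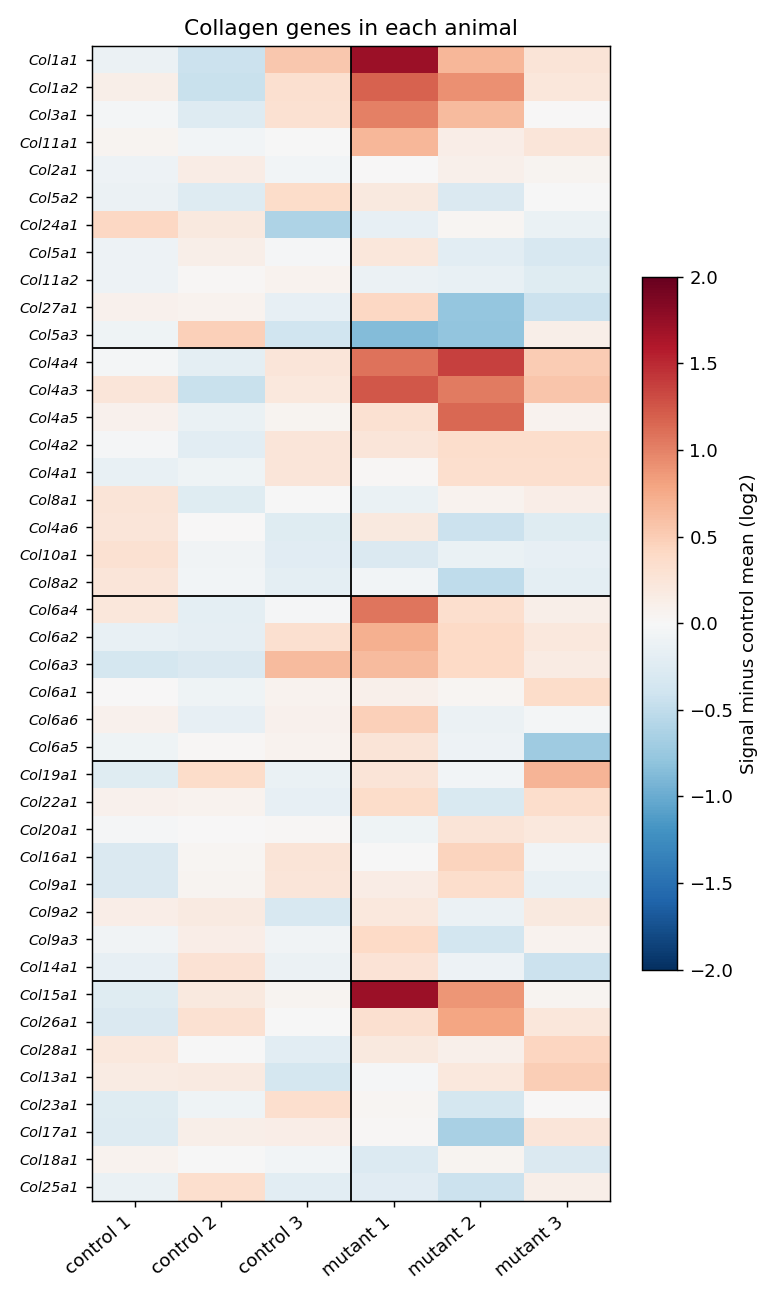
Signal of each collagen gene in each of the 6 animals, as the difference from the gene's control mean in log2 units, with genes in rows by class (fibrillar, network, beaded filament, fibril-associated, other, from top to bottom). Type I chains, Col3a1 and Col15a1 are reddest in mutant 1, Col4a4 and Col4a3 are red in all 3 mutants, and most fibril-associated genes are pale throughout.

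By animal, mutant 1 had the highest signal of the 6 for 15 of the 42 genes and mutant 2 for 8, while control 2 had the lowest for 13. Mean signals over the 11 fibrillar genes were 7.07, 7.03 and 7.10 in controls, against 7.46, 7.09 and 7.05 in mutants. Mutant 1 alone stood above all controls by more than the controls differed among themselves, and mutant 3 lay among them. Over the 9 network genes the means were 7.04, 6.75 and 6.95 in controls, against 7.20, 7.27 and 7.06 in mutants. These did not overlap, although mutant 3 exceeded control 1 by little. Without Col4a3 and Col4a4, described below, the means of the other network genes overlapped between the groups. Those chains had the largest changes of the class, and the margin was small. The overlap therefore does not show that the separation rested on them alone. Beaded filament means were 7.43, 7.32 and 7.66 against 8.01, 7.63 and 7.49, and overlapped. So did fibril-associated means, at 5.92, 6.17 and 5.99 in controls against 6.22, 6.04 and 6.14. Over the other 8 genes they were 6.001, 6.22 and 6.05 against 6.31, 6.17 and 6.25.

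Among the network collagens, the paired chains Col4a3 and Col4a4 had the smallest unadjusted p of all collagen genes. They encode the alpha3 and alpha4 chains, which join with alpha5 in the type IV network of the kidney glomerulus and some other basement membranes. Col4a4 measured 6.72, 6.55 and 6.99 in controls, against 7.84, 8.12 and 7.26 in mutants. All mutants lay above all controls, with mutant 3 closest to them. The log2 difference came to 0.99 (SE 0.24, 95% interval 0.45 to 1.53, a measured 1.99-fold), which did not pass the test (limma adjusted p = 0.205). The control values lay within the background range, so this fold may be too small.

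Col4a3 measured 8.43, 7.75 and 8.41 in controls, against 9.43, 9.23 and 8.75 in mutants, all above the background range. Again the groups did not overlap, and mutant 3 was the lowest mutant. The change was 0.94 (SE 0.25, 95% interval 0.37 to 1.51, 1.92-fold, limma adjusted p = 0.257). The third chain of that network, Col4a5, measured 6.66, 6.44 and 6.64 in controls, against 6.88, 7.74 and 6.65 in mutants. Its change of 0.51 (SE 0.27, limma adjusted p = 0.571) rested on mutant 2, without which it was 0.18. Col4a6, the head-to-head partner of Col4a5, measured 5.51, 5.28 and 5.02 against 5.47, 4.85 and 5.03, with a change of -0.16 (SE 0.21). The measured changes of the pair on the X chromosome thus had opposite signs, but the 95% intervals of both included 0. Both genes had means within the background range.

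Col4a1 and Col4a2 encode the alpha1 and alpha2 chains, which are found in nearly every basement membrane. Col4a1 measured 8.23, 8.30 and 8.62 in controls, against 8.40, 8.72 and 8.71 in mutants, and the groups overlapped. Its change was 0.23 (SE 0.17, 95% interval -0.16 to 0.62). Col4a2 measured 10.19, 9.9999 and 10.46 in controls, against 10.47, 10.57 and 10.57 in mutants, which separated the groups narrowly, between control 3 and mutant 1. Col4a2 differed by 0.32 (SE 0.16, 95% interval -0.06 to 0.69, limma adjusted p = 0.554). After the arrays were set to the same median, 4 collagen genes rather than 5 had groups that did not overlap. Leaving out control 2 took the change of Col4a2 to 0.21, and leaving out control 1 or control 3 took that of Col4a1 to 0.15 or 0.35. Of the lattice-forming chains, Col8a2 had a change of -0.25 (SE 0.19), Col10a1, known from growth plate cartilage, -0.20 (SE 0.17) and Col8a1 0.02 (SE 0.18).

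**Figure D3:**
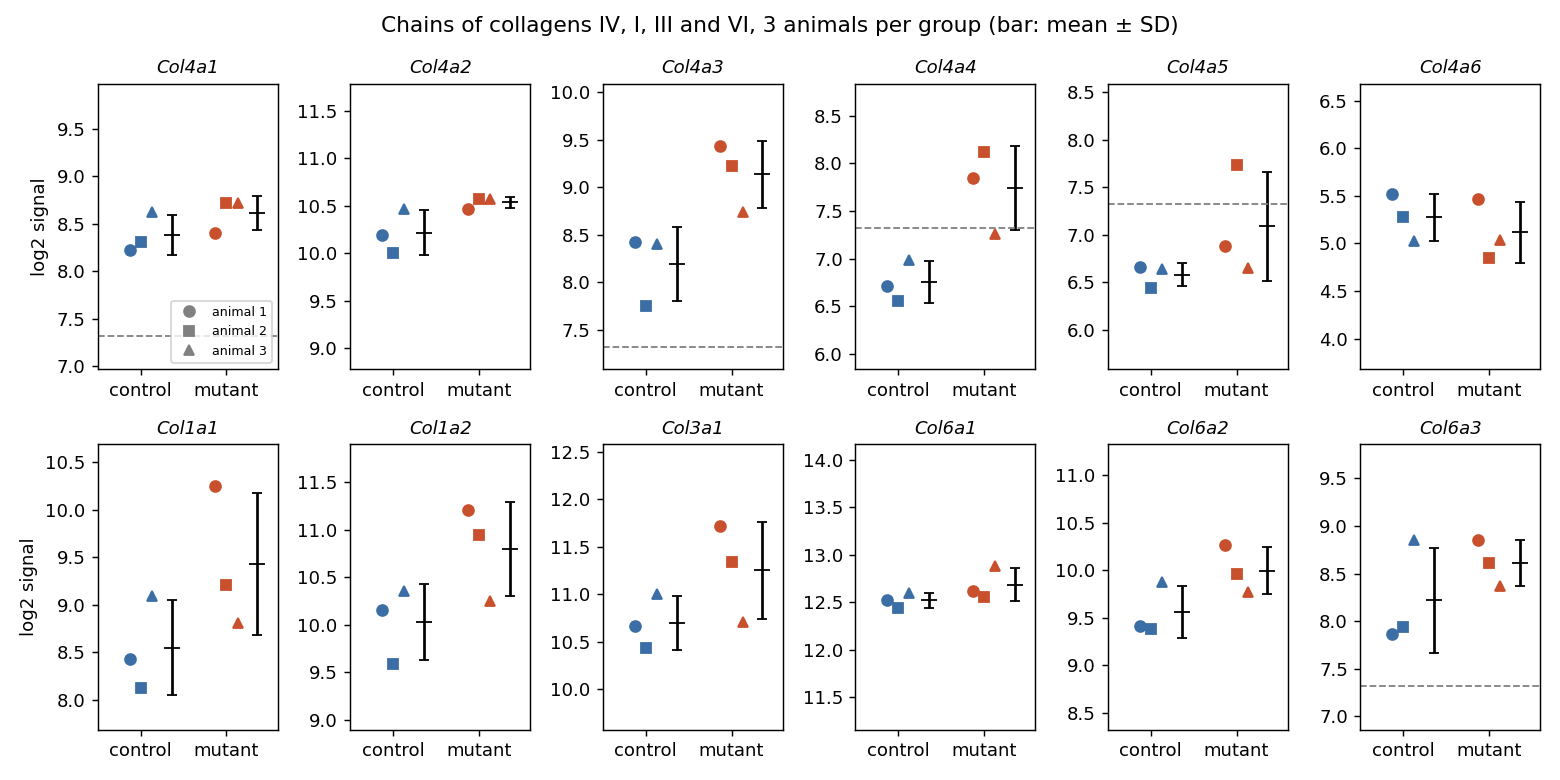
Log2 signals of the chains of collagens IV (upper row), I, III and VI (lower row) in each animal, with mean and SD of each group beside the points (n = 3 each). Every panel spans 3 log2 units, and the dashed line marks the top of the background range, 7.32, where it falls in the panel. The groups are apart for Col4a2, Col4a3 and Col4a4 and overlap for the other 9 chains.

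The main chains of fibrous matrix were higher in 2 of 3 mutants and not in the third. Col1a2, which encodes the alpha2 chain of type I, measured 10.15, 9.58 and 10.35 in controls, against 11.21, 10.94 and 10.25 in mutants. Mutant 3 lay between control 1 and control 3. The change was 0.77 (SE 0.29, 95% interval 0.11 to 1.43, limma adjusted p = 0.409). Col1a1, the alpha1 chain that supplies a pair of the 3 strands in each type I molecule, measured 8.43, 8.12 and 9.09 in controls, against 10.25, 9.21 and 8.81 in mutants. Mutant 1 stood well above the other animals, and without it the change of 0.88 (SE 0.38, 95% interval from just below 0 to 1.75, limma adjusted p = 0.484) was 0.46.

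Col3a1, which forms fibres together with type I in soft tissue, measured 10.66, 10.44 and 11.00 in controls, against 11.71, 11.34 and 10.71 in mutants. Its groups overlapped in the same way as those of type I, and its change was 0.55 (SE 0.27, limma adjusted p = 0.533), or 0.32 without mutant 1. The neighbouring gene on chromosome 1, Col5a2, had a change of -0.04 (SE 0.21). Col5a1 and Col5a2 encode chains of type V, which starts fibre growth; Col5a1 had a change of -0.10 (SE 0.18), and the less widespread Col5a3 of -0.51 (SE 0.31, limma adjusted p = 0.631), with mutant 1 and mutant 2 below all controls and mutant 3 above 2 of them. The signs of Col5a1 and Col5a2 changed with single animals left out: Col5a1 was at 0.01 without mutant 3, and Col5a2 at 0.15 without control 3. Col5a3 stayed below 0 with any single animal left out, from -0.83 to -0.28. It was at 0.21 with the fibroblast list mean as a covariate. Col5a2 and Col5a3 had means within the background range.

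The remaining fibrillar genes include chains known best from cartilage. Col11a1, of type XI, measured 4.78, 4.68 and 4.72 in controls, against 5.40, 4.86 and 4.97 in mutants. All mutants were higher, but every value lay within the background range (change 0.35, SE 0.18, limma adjusted p = 0.543, and 0.19 without mutant 1). Its partner chain Col11a2 measured 8.01, 8.13 and 8.18 against 7.99, 7.96 and 7.86. It was the 1 collagen gene with all mutants below all controls (change -0.17, SE 0.14, limma adjusted p = 0.738), and the nearest animals differed by little. Col2a1, the main fibrous collagen of cartilage, had a change of 0.06 (SE 0.14), Col24a1 of -0.09 (SE 0.26) and Col27a1 of -0.26 (SE 0.29).

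Type VI filaments contain the products of Col6a1, Col6a2 and Col6a3, and all these genes were above the background range. Col6a1 measured 12.52, 12.44 and 12.59 in controls, against 12.62, 12.56 and 12.88 in mutants, a change of 0.17 (SE 0.15, 95% interval -0.18 to 0.52), or 0.07 without mutant 3. Col6a2 measured 9.42, 9.38 and 9.88 in controls, against 10.26, 9.96 and 9.77 in mutants, a change of 0.44 (SE 0.20, limma adjusted p = 0.500). In Col6a2 mutant 3 lay below control 3, as in the type I and III chains. Col6a3 measured 7.86, 7.93 and 8.85 in controls, against 8.85, 8.61 and 8.37 in mutants, where control 3 was as high as mutant 1 (change 0.40, SE 0.28). That change was 0.22 without control 1 and 0.72 without control 3. Col6a4, Col6a5 and Col6a6, a row of related genes on chromosome 9 that can replace the alpha3 chain, were all within the background range. Col6a4 measured 4.78, 4.36 and 4.53 against 5.63, 4.90 and 4.67 (change 0.51, SE 0.25, and 0.23 without mutant 1), Col6a5 had a change of -0.19 (SE 0.24) and Col6a6 of 0.10 (SE 0.19).

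Fibril-associated chains had the narrowest range of changes among the classes. Col16a1, found in skin and vessel matrix, measured 8.08, 8.41 and 8.64 in controls, against 8.37, 8.83 and 8.31 in mutants (change 0.12, SE 0.21). Col20a1 measured 7.63, 7.66 and 7.68 against 7.57, 7.91 and 7.87 (0.13, SE 0.15), and Col22a1, known from tissue junctions such as muscle ends, 6.10, 6.08 and 5.84 against 6.38, 5.71 and 6.36 (0.14, SE 0.21). In all these the groups overlapped. With single animals left out their changes ran from -0.04 to 0.25, from 0.07 to 0.23 and from 0.03 to 0.36. Col9a1, Col9a2 and Col9a3, the chains of type IX, had changes of 0.12, 0.09 and 0.04, Col14a1 of -0.08 and Col19a1 of 0.29 (SE 0.24), all at signals within the background range. Of the 8 fibril-associated genes, Col16a1 and Col20a1 alone had means above it.

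Types XV and XVIII, the multiplexins, lie in basement membrane zones. The measured changes of their genes had opposite signs, though the 95% interval for Col18a1 included 0. Col15a1 measured 6.39, 6.83 and 6.70 in controls, against 8.35, 7.53 and 6.70 in mutants. Mutant 1 and mutant 2 were above every control, and mutant 3 was among them. The change was 0.88 (SE 0.37, 95% interval 0.04 to 1.73, limma adjusted p = 0.462), and 0.47 without mutant 1. The control values of Col15a1 lay within the background range, as did its mean over the 6 arrays, so this change may be too small. Col18a1, whose product is the precursor of endostatin, measured 9.64, 9.57 and 9.52 in controls, against 9.31, 9.63 and 9.29 in mutants, a change of -0.17 (SE 0.16), or -0.28 without mutant 2. Mutant 2 lay with the controls and the other mutants lay below them.

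The remaining genes had means within the background range, and Col13a1, Col17a1, Col23a1 and Col25a1 among them encode transmembrane chains. Col13a1, found at cell adhesion sites, measured 7.16, 7.16 and 6.64 in controls, against 6.96, 7.20 and 7.48 in mutants (change 0.23, SE 0.21, and 0.06 without control 3). Col17a1, a hemidesmosome component, had a change of -0.13 (SE 0.24), Col23a1 of -0.10 (SE 0.20) and Col25a1 of -0.18 (SE 0.21). Col26a1 measured 3.87, 4.46 and 4.14 in controls, against 4.48, 4.95 and 4.38 in mutants, with 1 mutant below the highest control (change 0.45, SE 0.22, and 0.27 without mutant 2). Col28a1 had a change of 0.24 (SE 0.17).

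The order of the animals was the same in 4 of the collagen genes, Col1a1, Col1a2, Col3a1 and Col6a2. From lowest to highest it ran control 2, control 1, mutant 3, control 3, mutant 2 and mutant 1. This order was held by 0.329% of all probe sets. It was taken, after the values were seen, from the mean of 11 fibroblast markers that are not collagens. That mean was 9.49, 9.67, 9.79, 9.87, 10.09 and 10.44 in the animals so ordered. Of the 11 markers, 2 (18.2%) had the order themselves. Of these markers 9 were higher in mutants and 2 lower, with a median change of 0.45 (0 of 11 passed the test), and Dcn, a small proteoglycan that binds collagen fibres, had a change of 0.45 (SE 0.20). In whole glands a larger share of fibroblasts, more RNA per fibroblast and RNA from other cell types cannot be told apart. Which cells gave the shared order was not tested. These 4 genes were picked for sharing the order of the list mean, so that mean is not set against their changes. A fit with the list mean as a covariate was added after the values were seen. For the genes with an unadjusted p under 0.05 that were not picked that way, it gave 0.60 for Col4a4, 0.42 for Col4a3 and 0.11 for Col15a1. Some other collagen genes moved farther from 0, among them Col13a1 (from 0.23 to 0.63) and Col27a1 (from -0.26 to -0.63). The list mean itself tended to be higher in mutants, so the fit can take up part of any group difference. No collagen gene passed in that fit, and 3 residual degrees of freedom remained.

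Other cell types varied beside the collagens. Smooth muscle and pericyte markers had list means of 9.16, 8.89 and 9.16 in controls, against 9.79, 9.35 and 9.33 in mutants, with 7 of 9 higher. Endothelial markers had means of 11.43, 11.23 and 11.40 against 11.67, 11.67 and 11.58, with 7 of 9 higher. In both lists the groups did not overlap, as for Col4a3 and Col4a4, and their part in those results was not tested. Fat markers had means of 8.06, 9.47 and 10.84 in controls, against 12.18, 9.81 and 9.19 in mutants, with mutant 1 the highest and control 1 the lowest, and 10 of 10 were higher in mutants with a median change of 0.99. With the fat mean as a covariate the changes were 0.53 for Col1a1, 0.58 for Col15a1, 0.85 for Col4a3 and 0.89 for Col4a4. Macrophage markers had means from 10.25 to 10.27 in controls and from 10.23 to 10.79 in mutants, with 6 of 6 higher. Schwann cell markers were dim throughout, from 4.88 to 5.25, with 3 of 3 within the background range in both groups. Of the chromaffin markers 0 of 5 were higher in mutants, with a median change of -0.32, of the cortex markers 2 of 7 (-0.02) and of the kidney markers 4 of 8 (-0.01), and 0 genes of any marker list passed the test.

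**Figure D4:**
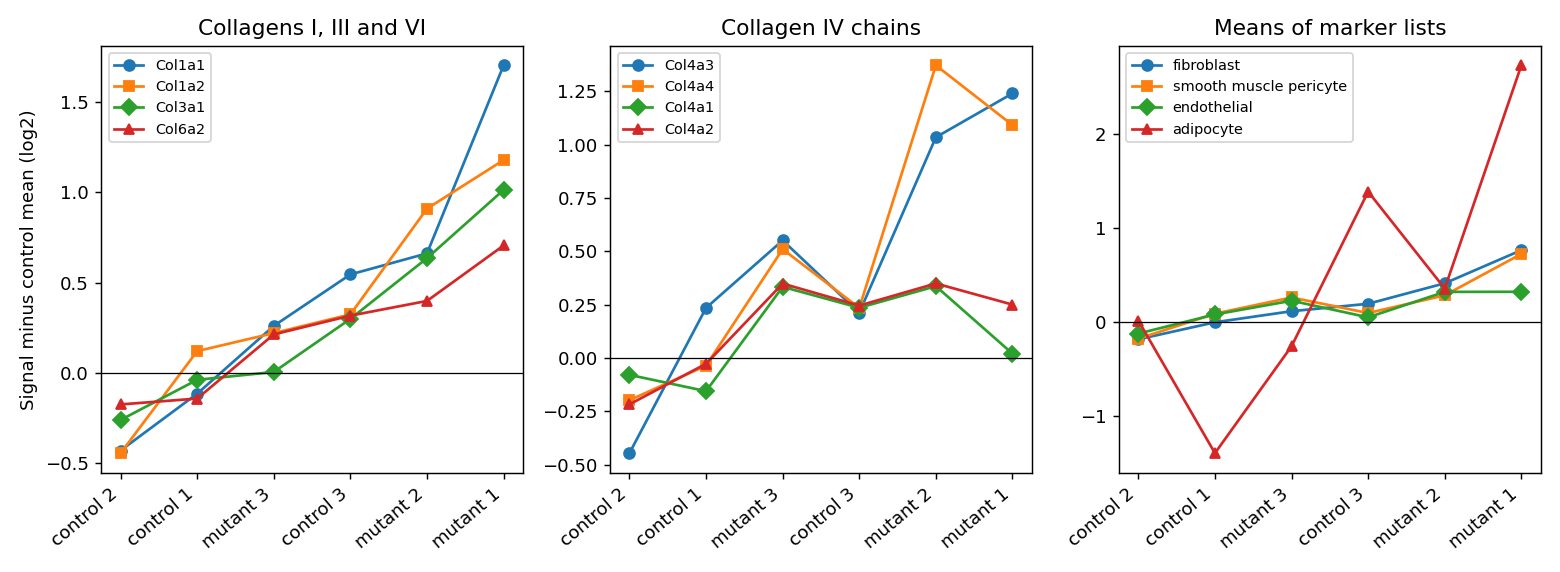
Difference from the control mean in log2 units for 4 chains of types I, III and VI (left), 4 chains of type IV (middle) and the means of 4 marker lists (right), with the animals on the x axis in the order of the fibroblast list mean; lines join the values of 1 gene or list and do not stand for time. The chains on the left were chosen for having that order, so their rise along the axis follows from the choice, and 38 of the 42 collagen genes do not have it. Col4a3 and Col4a4 are higher in mutant 3 than in control 3, and the fat list is highest in mutant 1 and second in control 3.

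Promoter windows were searched for a pair of short motifs, since several chains had the same order of animals. GGAATG, the core of the site bound by TEAD factors, was sought on both strands, where it reads CATTCC on the opposite one. CCAAT, a box of many promoters, was sought likewise and reads ATTGG on the opposite strand. Windows were listed for 34 of the 42 genes, 37 windows in all. Col1a1, a gene with the shared order, had no window and was not searched. GGAATG was in 13.5% of the 37 windows, against 14.7% of all 32851 windows, and CCAAT in 32.4% against 37.4%. Of the genes with the shared order, Col3a1 (chr1:45311288-45311587, plus strand) and Col6a2 (chr10:76623355-76623654, minus strand) held GGAATG, and Col1a2 (chr6:4505368-4505667, plus strand) held CCAAT on each strand. Their windows are shown to place these matches, in capitals, in their surroundings (RefSeq, GRCm38.p6).
Col3a1: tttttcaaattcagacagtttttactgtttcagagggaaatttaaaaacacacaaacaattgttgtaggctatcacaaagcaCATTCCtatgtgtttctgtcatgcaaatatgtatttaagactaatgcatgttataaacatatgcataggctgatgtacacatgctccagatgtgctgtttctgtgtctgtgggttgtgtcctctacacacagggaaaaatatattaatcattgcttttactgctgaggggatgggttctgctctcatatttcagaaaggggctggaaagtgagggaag
Col6a2: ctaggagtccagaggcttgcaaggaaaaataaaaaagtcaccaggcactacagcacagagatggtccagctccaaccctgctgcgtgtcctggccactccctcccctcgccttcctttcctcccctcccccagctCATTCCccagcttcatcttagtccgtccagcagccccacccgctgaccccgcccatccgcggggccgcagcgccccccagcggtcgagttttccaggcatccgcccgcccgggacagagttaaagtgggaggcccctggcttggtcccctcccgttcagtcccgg
Col1a2: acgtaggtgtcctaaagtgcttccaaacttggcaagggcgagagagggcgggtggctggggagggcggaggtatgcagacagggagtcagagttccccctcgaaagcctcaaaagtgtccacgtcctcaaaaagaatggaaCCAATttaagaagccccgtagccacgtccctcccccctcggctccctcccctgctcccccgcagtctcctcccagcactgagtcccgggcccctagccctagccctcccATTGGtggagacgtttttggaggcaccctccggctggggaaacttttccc
The windows of Col4a4 and Col4a1 printed above held no GGAATG. A match is a description of these letters and not a bound site.

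Enzymes that modify, secrete and cross-link collagen were counted from a list of 31 genes, of which 27 were measured. P4ha3, a catalytic subunit of the prolyl hydroxylase that stabilises the triple helix, was the 1 gene that rose; 0 fell and 26 did not pass. It measured 6.001, 5.84 and 5.65 in controls, against 6.99, 7.06 and 7.07 in mutants, all within the background range (change 1.21, SE 0.15, limma adjusted p = 0.0498). That call was lost in 10 of 16 alternatives, among them each that left out 1 animal (limma adjusted p from 0.0961 to 0.216) and the replicate block (limma adjusted p = 0.143), while the change stayed between 1.12 and 1.31. The lysyl oxidase family member Loxl3, of the cross-linking enzymes, measured 8.58, 8.41 and 8.70 in controls, against 9.89, 9.89 and 9.44 in mutants, without passing (change 1.17, SE 0.18, limma adjusted p = 0.0621), and passed in 2 of 17 alternatives. Loxl1 had a change of 0.77 (SE 0.22, limma adjusted p = 0.293), or 0.40 with the fibroblast list mean as a covariate. P4ha2, another hydroxylase subunit, had one of -0.53 (SE 0.26), which was -0.29 with that covariate and -0.27 without mutant 2. The median change of the list was 0.04.

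Of 8 measured collagen receptors 0 passed, with 5 higher and 3 lower and a median change of 0.25. Itga2, the alpha subunit of a collagen-binding integrin, measured 9.27, 9.85 and 10.37 in controls, against 7.44, 7.52 and 8.05 in mutants, a change of -2.16 (SE 0.29, limma adjusted p = 0.0529). It passed in 6 of 17 alternatives, with changes from -2.44 to -1.89 over all of them. Its partner Itgb1, shared by many integrins, had a change of 0.35 (SE 0.14) with groups that did not overlap. Mrc2, which takes up collagen for breakdown, and the collagen-activated kinase Ddr2 had changes of 0.64 (SE 0.21) and 0.73 (SE 0.28). With the fibroblast list mean as a covariate these were 0.34 and 0.04. With the same covariate Itga2 was at -2.02, Itgb1 at 0.41, P4ha3 at 1.31 and Loxl3 at 0.87. Of 8 breakdown genes 0 passed, with 4 higher and 4 lower. Mmp2, a gelatinase, measured 9.41, 9.13 and 9.55 in controls, against 11.01, 10.99 and 10.16 in mutants, all mutants higher (change 1.36, SE 0.25, limma adjusted p = 0.107), and passed in 1 of 17 alternatives, the trended robust prior. With the fibroblast list mean as a covariate the change of Mmp2 was 0.83. Mmp9 (0.26), Mmp8 (0.25) and Mmp1a (-0.28) lay within the background range, and with that covariate were at 0.30, 0.27 and -0.12.

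**Figure D5:**
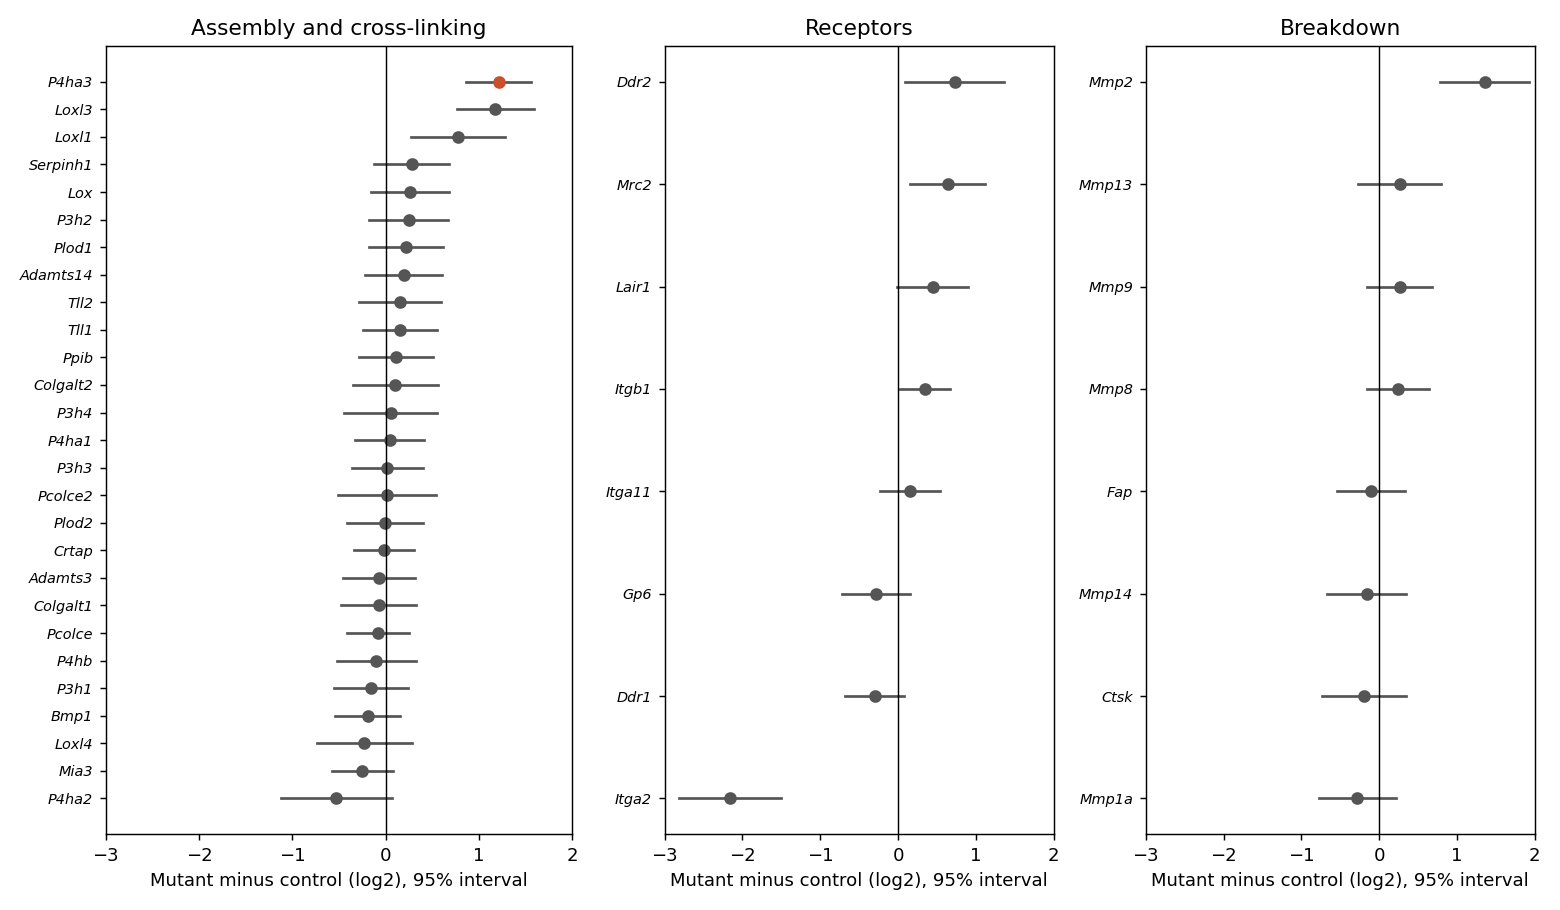
Change, mutant minus control in log2 units with the 95% limma interval, of genes for collagen assembly and cross-linking, collagen receptors and collagen breakdown (3 animals per group). The orange point marks P4ha3, the 1 gene past an adjusted p of 0.05; Itga2 lies farthest below 0, at -2.16, and Mmp2 farthest above it, at 1.36.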

How the data were processed

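RNA from whole adrenal glands was hybridised to Affymetrix whole-transcript arrays, 1 for each mouse. The authors deposited 1 log2 signal per probe set and array, a scale inferred from the values. Transcriptome Analysis Console 4.0 is named in the submitters' processing notes. How background was corrected, how arrays were normalized and which genome build served are not stated in the labels, and a normalization that equalises arrays can mask shifts common to many genes. Control probe sets (6640) were left out, leaving 22206, of which 19572 had 1 gene symbol in the platform annotation and 2634 had none.

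The mutant group was compared with controls by limma 3.58.1 in R 4.3.3 (lmFit, then eBayes), two-sided, with no covariate and no filter, and p-values were adjusted by Benjamini-Hochberg over all probe sets. The script was tested on simulated data. For each gene the probe set with the highest mean was taken. Class medians and counts are descriptions without a test. Precision is limited by 3 mice per group.

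The members, gene lists, tests and alternatives were chosen with earlier results of these data known. Values in every animal are given for the 12 collagen genes of smallest unadjusted p, the 3 of highest mean in each class and their partner chains. Of the other collagen lists, genes past the threshold and the 4 of smallest p are named; Dcn was the fibroblast marker of highest mean. Alternatives were quantile normalization, a common median, a filter on level and another on gene symbols, a trended robust prior, array weights, a block for the replicate number, leaving out single animals, gene means, and covariates (intron control probe sets, fat and fibroblast marker means).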

Additional observations from a re-analysis of the deposited data

How the results depend on the processing

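Under each of 17 alternatives 0 collagen genes passed, and the smallest adjusted p of any of them was 0.115 (Col4a4 without mutant 3). The sign of the change was kept in every alternative for 23 of the 42 genes. With the fibroblast list mean left out of the alternatives it was kept for 29. Of the 19 genes that lost it in any alternative, 14 had means within the background range. Col1a1 and Col3a1, counted among the 19, lost it with the fibroblast list mean alone. They were picked for sharing the order of that mean, so their loss of sign is not read as a result. The count of all probe sets called, 16, was 38 with quantile normalization, 32 with a common median, 92 above the median level, 41 with 1 gene symbol, 175 with a trended robust prior, 48 with array weights, 8 with the intron control mean, 2 with the fat list mean and 0 with the fibroblast list mean as covariates (1450 probe sets had an unadjusted limma p under 0.05 in that last fit). With single animals left out it was 1 to 15. The count of collagen genes whose groups did not overlap, 5, was 8 to 15 with fewer animals, where less is needed to separate them. Class medians with an animal left out ran from -0.05 to 0.03 (fibrillar), 0.15 to 0.35 (network), 0.19 to 0.35 (beaded filament), 0.06 to 0.14 (fibril-associated) and -0.00 to 0.18 (other). Above the median level, where 19 collagen genes were left, they were 0.55 for 5 fibrillar, 0.41 for 6 network and 0.23 for 3 other genes. The fibrillar median was 0.065 with the fat list mean as a covariate, and the beaded filament median -0.061 with the fibroblast list mean. The fibroblast alternative was added to the others after seeing the values reported here. The beaded filament class also holds Col6a2, which was picked for sharing the order of the fibroblast list mean. The cause was not tested. With the replicate number as a block 1 probe set and 0 collagen genes passed. Deviations of same-numbered animals correlated at -0.09, 0.08 and -0.07, and number 2 alone correlated best with its own number. The labels state no pairing. With 3 animals per group these correlations cannot show whether same-numbered animals have anything else in common. Signals within the background range limit what 27 of the genes can show.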
